A study of Mus musculus with 8 samples.

Results

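Liver RNA of mice that carried a human LXRα transgene was compared between animals given T0901317, a synthetic LXR agonist, and animals given vehicle. The members were the arrays whose titles name the LXRα vector with T0901317 (2 arrays) or with vehicle (2 arrays), 4 of the 8 arrays of the series. All were on a C57B6 background and 8 months old, and all 4 groups shared the same genotype apart from the vector. Their diet was a Western diet in the last 12 weeks. An adeno-associated virus (AAV2.8) had been given at 10 weeks of age, in which the human thyroxine binding globulin promoter, active in liver, drove the transgene. T0901317 was injected intraperitoneally at 5 mg/kg for 3 days, and vehicle was injected for 3 days. The other 4 arrays came from mice with the same vector carrying GFP, 2 given T0901317 and 2 given vehicle. The comparison asks which liver transcripts differ with 3 days of agonist when hepatocytes already carry added LXRα, and the GFP arrays show the same treatment without it. Values below are log2 intensities of Affymetrix probe sets, each gene being represented by its brightest tested probe set, and 1 log2 unit is a 2-fold difference. Each array was 1 liver sample per the labels, and p-values measure only the spread between these samples.

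The liver X receptors are nuclear receptors that bind DNA as heterodimers with RXR and are activated by oxysterols. In liver their targets include the sterol exporters Abca1, Abcg1, Abcg5 and Abcg8, the lipogenic regulator Srebf1 with the enzymes it controls, and, in rodents, Cyp7a1, the first enzyme of the classical bile acid pathway. T0901317 is also known to bind PXR, a receptor that controls genes of drug metabolism. Whole liver holds hepatocytes with Kupffer cells, stellate cells, endothelium and blood cells, so fewer cells of a type and less RNA per cell cannot be told apart in these data.

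The T0901317 arrays differed from each other in their control transcripts. The β-actin 3'/5' ratio, which goes up when transcripts are incomplete at their 5' ends, was 2.75 on LXRα T0901317 replicate 1 and 36.3 on replicate 2, against 2.61 and 3.08 on the LXRα vehicle arrays. The Gapdh ratio was 1.27 and 19.7 on the T0901317 arrays, against 1.16 and 1.14 on the vehicle arrays. The pyruvate carboxylase ratio was 26.4 and 51.9 with T0901317 and 8.34 and 11.2 with vehicle, so for this control both T0901317 arrays were above both vehicle arrays. The middle probe set of 18S ribosomal RNA ran the other way, at intensities of 45.3 and 33.8 with T0901317 and 245 and 488 with vehicle. The pyruvate carboxylase ratio and the 18S signal thus separated the treatments, while for β-actin and Gapdh only replicate 2 stood far from the vehicle arrays. The ratio of the dap control was 1.57 and 7.66 with T0901317 and 1.13 and 1.0 with vehicle, and those of thr and lys also separated the treatments. The ratios of phe and of the transferrin receptor did not, the latter at 1.21 and 1.32 with T0901317 and 1.29 and 1.14 with vehicle. The part of these controls in the results below was not tested. The median absolute difference between the replicates was 0.325 for the T0901317 arrays and 0.189 for the vehicle arrays, and 11% and 4.31% of tested probe sets differed by more than 1 log2 unit. Albumin (Alb), the main hepatocyte secretory protein, was at 14.74 and 14.65 with T0901317 and 14.76 and 14.69 with vehicle. The mouse gene for LXRα, Nr1h3, was at 7.35 and 5.97 with T0901317, against 7.51 and 7.77 with vehicle. Its probe set was designed for the mouse transcript, and binding of the human one is unknown, so it does not check the vector labels.

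**Figure D1:**
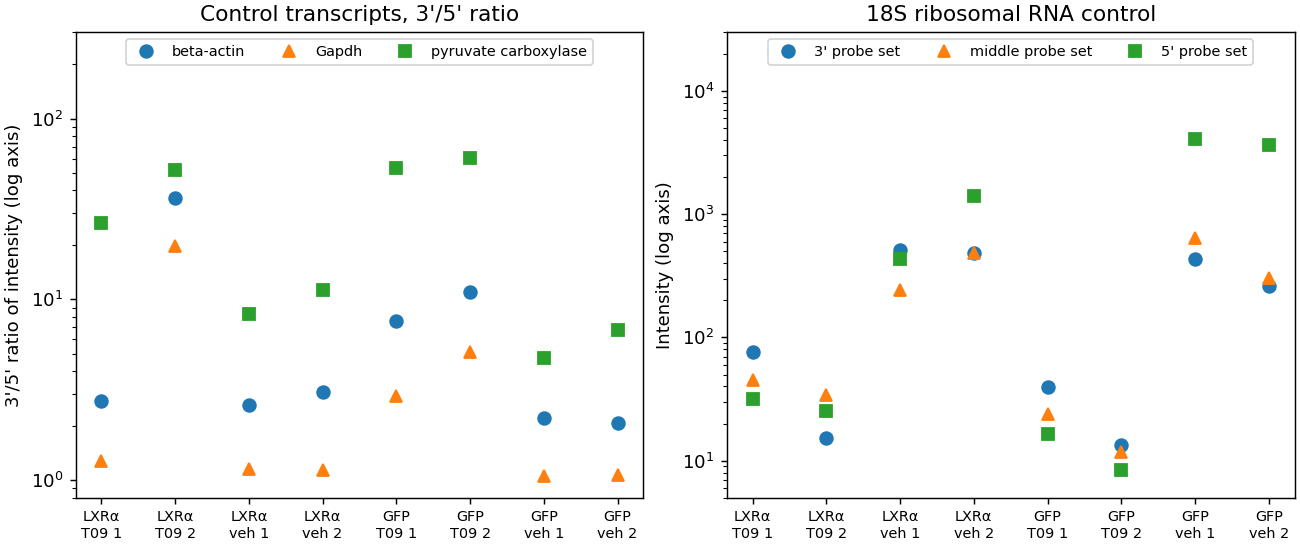
The left panel plots the 3'/5' intensity ratio (log axis) of 3 control transcripts on each of the 8 arrays, and the right panel plots the intensity (log axis) of the 3 probe sets of 18S ribosomal RNA. LXRα T0901317 replicate 2 has the highest β-actin ratio, 36.3, and the 18S middle probe set lies at 45.3 or below on the LXRα T0901317 arrays, against 245 and 488 on the LXRα vehicle arrays.

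With an adjusted p under 0.05, 4 of 15838 tested probe sets were called, or 0.0253%, of which 3 were higher and 1 was lower with T0901317. At an unadjusted p under 0.05 there were 2087 probe sets, against 792 that chance alone would give on average if all were independent and unchanged. The 3 called probe sets with 1 gene symbol belong to Hsd3b5, Zmynd8 and Mast2.

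Hsd3b5 encodes a 3-ketosteroid reductase of the hydroxysteroid dehydrogenase family, which in mice is made mainly in male liver. It lay at 2.91 and 3.90 on the LXRα T0901317 arrays, against 9.72 and 10.08 on the LXRα vehicle arrays. In deposited intensity these values were 5.75 and 15.0 with T0901317 and 846 and 1080 with vehicle, and the lowest was raised to the floor of 7.50 before the fit. Hsd3b5 therefore fell by 6.49 on the log2 scale (SE 0.319, limma adjusted p = 0.00307), and the size depends on that floor. On the GFP arrays it was near the floor under either treatment, at 3.07 and 2.91 with T0901317 and 3.02 and 2.91 with vehicle, so the 2 LXRα vehicle livers were the only ones of the 8 with a high level. The Y-linked gene Eif2s3y, looked at after this was seen, lay between 6.41 and 7.46 on all 8 arrays. The call was lost in a fit of the 4 LXRα arrays only (adjusted p = 0.205) and in one without LXRα vehicle replicate 2 (adjusted p = 0.068), and the adjusted p ranged between 0.000694 and 0.205 over all alternatives.

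Zmynd8, a reader of histone marks that acts in transcriptional repression and in DNA repair, rose 6.28-fold. Its log2 intensities were 6.40 and 5.95 with T0901317, against 3.36 and 3.69 with vehicle, a difference of 2.65 (SE 0.221, limma adjusted p = 0.0358). In the GFP livers Zmynd8 was at 6.71 and 6.46 with T0901317 and 4.16 and 4.15 with vehicle, a difference of 2.43. Mast2, a microtubule-associated serine/threonine kinase, rose 3.27-fold. It measured 4.81 and 4.77 with T0901317, against 3.09 and 3.07 with vehicle (difference 1.71, SE 0.156, adjusted p = 0.0488), and all 4 values are dim. Over the alternatives the adjusted p ranged between 0.0171 and 0.331 for Zmynd8 and between 0.0235 and 0.545 for Mast2, and T0901317 replicate 1 on its own stood 2.88 above the vehicle mean for Zmynd8 and 1.73 above it for Mast2. The call of Zmynd8 was lost when any 1 of the LXRα vehicle, GFP T0901317 or GFP vehicle arrays was left out (adjusted p between 0.0836 and 0.331). That of Mast2 was lost without T0901317 replicate 2 (adjusted p = 0.105) and without any 1 of the LXRα vehicle or GFP T0901317 arrays (adjusted p between 0.0836 and 0.545). The fourth called probe set matches several gene symbols and is not named. It lay at 9.15 and 9.05 with T0901317, against 5.90 and 5.75 with vehicle, while the GFP arrays read 8.15 and 7.88 with T0901317 and 7.88 and 7.90 with vehicle (adjusted p = 0.0104). Its call was lost with the 4 LXRα arrays alone (adjusted p = 0.267), without the 3 T0901317 arrays of high β-actin ratio (0.0878) and without LXRα vehicle replicate 1 (0.0836) or 2 (0.247).

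**Figure D2:**
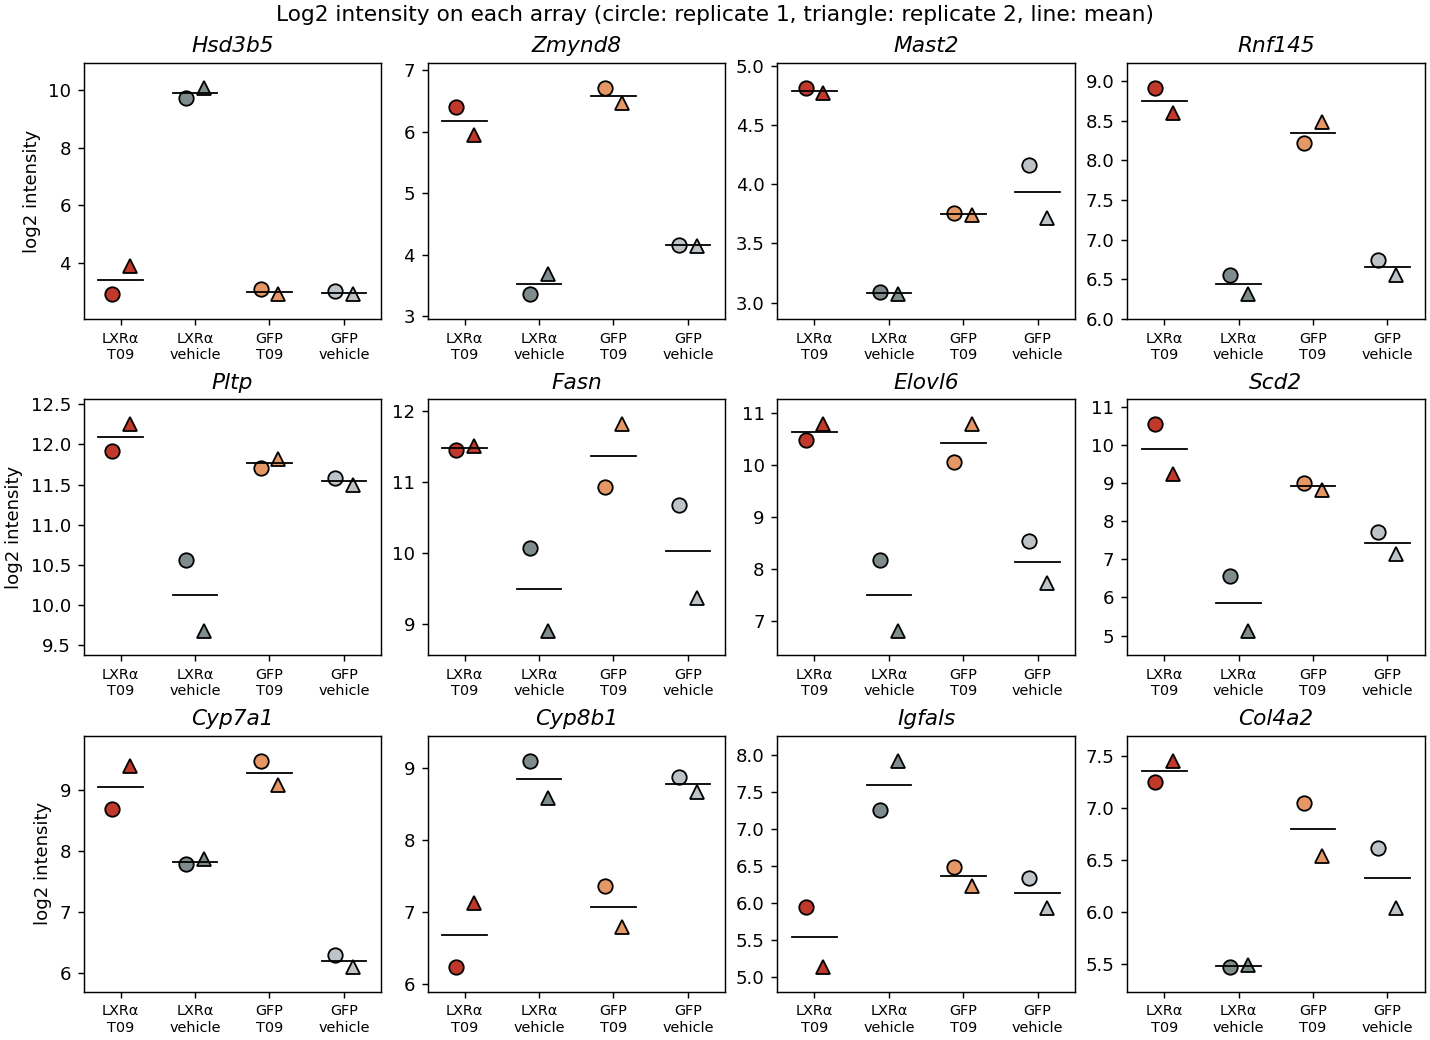
Log2 intensities (vertical axes) of 12 genes on each of the 8 arrays, with a circle for replicate 1, a triangle for replicate 2 and a line at the group mean, where T09 stands for T0901317. Hsd3b5 is above 9 only on the 2 LXRα vehicle arrays, Rnf145 lies at 8.91 and 8.59 with T0901317 and at 6.56 and 6.31 with vehicle in LXRα livers, and Zmynd8 is higher with T0901317 with either transgene.

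Established LXR targets were mostly higher with T0901317, and none passed the adjusted test. Of 23 listed genes 21 were on the array and 20 were tested, of which 18 were higher and 2 lower. For 14 of them both T0901317 arrays lay above both vehicle arrays, as for 21.9% of all 9359 genes, and for 2 both lay below, as for 26.7% of all genes. At an unadjusted p under 0.05 there were 12 of 20 higher and 0 lower, against 8.58% of all genes higher and 4.7% lower, and 0 at the adjusted threshold. The median log2 difference of the list was 0.85, against -0.03 over all genes. Taken by array it was 0.79 for T0901317 replicate 1, with 18 of 20 higher, and 0.85 for replicate 2, with 17 of 20 higher. Leaving out a vehicle array moved it further: the median was 1.16 without vehicle replicate 1 and 0.51 without vehicle replicate 2.

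Rnf145, an ER membrane ubiquitin ligase that limits cholesterol synthesis, had the smallest p of the LXR targets. It stood at 8.91 and 8.59 with T0901317, against 6.56 and 6.31 with vehicle, a difference of 2.32 (SE 0.238, adjusted p = 0.0762), and the groups did not overlap. Mylip, another ubiquitin ligase induced by LXR, was at 8.26 and 7.48 with T0901317 and 7.69 and 6.27 with vehicle, with overlap.

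Among the sterol exporters, Abca1, which loads cholesterol onto apolipoprotein A-I, measured 10.59 and 10.86 with T0901317 and 10.02 and 9.55 with vehicle (difference 0.94, SE 0.265, adjusted p = 0.242). Its 2 other tested probe sets read lower with T0901317, by -1.99 and -1.18, so its direction depends on the probe set. Abcg1, which exports cholesterol to high density lipoprotein, was at 8.43 and 8.53 with T0901317 and 7.72 and 7.83 with vehicle. The paired exporters Abcg5 and Abcg8, which move sterols into bile, differed by 0.83 and 0.54. Abcg5 lay at 11.15 and 10.69 with T0901317, against 10.56 and 9.63 with vehicle, and both genes separated the groups without passing the test.

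In lipoprotein handling, Pltp, which transfers phospholipid between lipoproteins, was at 11.92 and 12.25 with T0901317, against 10.56 and 9.68 with vehicle (difference 1.97, SE 0.311, adjusted p = 0.133), and its other probe set read 2.09. Lpl, lipoprotein lipase, was at 11.44 and 11.18 with T0901317, against 10.18 and 8.17 with vehicle (difference 2.13, SE 0.581, adjusted p = 0.228). Its vehicle replicates were nearly as far from each other as the group means were. On the GFP vehicle arrays Pltp was at 11.58 and 11.50 and Lpl at 10.68 and 10.49. Both genes thus had their lowest levels on the LXRα vehicle arrays. Smpdl3a, a phosphodiesterase that LXR induces in macrophages, differed by 0.96, and Apoc2, a cofactor of Lpl, by 0.60 with overlap. Apoe, the ligand that clears remnant lipoproteins, was at 14.32 and 14.16 with T0901317 and 14.35 and 14.49 with vehicle. It and Nr1h3 were the 2 members below both vehicle arrays.

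Of the lipogenic targets, Fasn, fatty acid synthase, measured 11.45 and 11.50 with T0901317, against 10.07 and 8.91 with vehicle (difference 1.99, SE 0.561, adjusted p = 0.241). Srebf1 was at 11.15 and 12.16 with T0901317 and 11.08 and 10.96 with vehicle, so replicate 1 was barely above vehicle. Scd1, the stearoyl-CoA desaturase, was near the top of the scale at 14.36 and 14.37 with T0901317 and 14.01 and 13.70 with vehicle, and its other probe set read -0.20. Mlxipl, which encodes the sugar-responsive factor ChREBP, and Lpcat3, which makes polyunsaturated phospholipids, overlapped between the groups at differences of 0.21 and 0.52. Cyp7a1 was at 8.69 and 9.39 with T0901317, against 7.78 and 7.86 with vehicle (difference 1.22, SE 0.298, adjusted p = 0.195), and its other probe set read 0.05. Abcd2, a peroxisomal transporter, lay at the floor on both vehicle arrays and at 3.94 and 4.30 with T0901317. Myo1c, a motor protein, differed by 0.86 on its brightest probe set, and its 3 others lay between -0.32 and 0.13.

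The element bound by LXR with RXR, a direct repeat of AGGTCA with 4 free letters between the copies, was searched on both strands of RefSeq promoter windows, each 250 bases before to 50 after a gene start (GRCm38.p6). With at most 2 of its 12 fixed letters changed it was in 993 of 32851 windows, or 3.02%. No such match was in the 25 windows of the 14 LXR targets found in the table, nor in the 8 windows of Hsd3b5, Zmynd8 and Mast2. The closest matches in LXR target windows had 3 letters changed and lay in 4 genes. Of all windows, 21.9% hold a match with at most 3 letters changed, so such a match is not particular to LXR targets. The letters that the matches in the 4 genes share spell GGGTTACTNNNGNTCA. This spelling was chosen after those promoters had been read, so its presence in them follows from how it was made. Searched unchanged on both strands, it was in 6 of 32851 windows, or 0.0183%, among them those of the LXR targets Abca1, Rnf145, Srebf1 and Fasn. Their windows are shown because these 4 share the spelling and had differences of 0.94, 2.32, 0.64 and 1.99 with T0901317. Sequences run 5′ to 3′ on the gene's strand, and capitals mark the match, which reads on the opposite strand in Abca1, Srebf1 and Fasn. The windows lie at chr4:53159846-53160145 (minus strand) for Abca1, chr11:44520039-44520338 (plus strand) for Rnf145, chr11:60210422-60210721 (minus strand) for Srebf1 and chr11:120824498-120824797 (minus strand) for Fasn.
Abca1: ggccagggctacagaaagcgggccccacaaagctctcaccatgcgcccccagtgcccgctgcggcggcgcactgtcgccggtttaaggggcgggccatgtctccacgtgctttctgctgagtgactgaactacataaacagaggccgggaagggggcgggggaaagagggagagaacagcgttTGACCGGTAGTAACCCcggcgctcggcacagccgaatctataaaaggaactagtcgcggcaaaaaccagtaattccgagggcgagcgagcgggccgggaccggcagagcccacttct
Rnf145: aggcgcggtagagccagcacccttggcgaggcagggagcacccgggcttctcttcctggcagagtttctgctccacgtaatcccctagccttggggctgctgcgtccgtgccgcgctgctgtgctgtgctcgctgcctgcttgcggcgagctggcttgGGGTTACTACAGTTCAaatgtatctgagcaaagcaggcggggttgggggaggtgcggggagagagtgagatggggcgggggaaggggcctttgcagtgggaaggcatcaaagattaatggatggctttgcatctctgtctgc
Srebf1: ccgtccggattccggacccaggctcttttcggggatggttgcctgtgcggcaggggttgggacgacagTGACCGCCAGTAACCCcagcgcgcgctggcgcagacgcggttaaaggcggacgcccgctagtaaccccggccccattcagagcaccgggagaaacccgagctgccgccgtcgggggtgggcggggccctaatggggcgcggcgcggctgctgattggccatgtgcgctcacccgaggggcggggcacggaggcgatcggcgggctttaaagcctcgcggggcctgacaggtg
Fasn: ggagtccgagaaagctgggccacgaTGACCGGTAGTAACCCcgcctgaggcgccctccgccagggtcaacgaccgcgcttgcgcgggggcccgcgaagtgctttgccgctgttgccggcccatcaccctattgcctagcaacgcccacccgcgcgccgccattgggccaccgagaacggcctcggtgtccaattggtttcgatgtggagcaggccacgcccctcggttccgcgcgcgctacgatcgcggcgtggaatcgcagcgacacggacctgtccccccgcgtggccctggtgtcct
The match starts 67 bases before the gene start in Abca1, 92 in Rnf145, 182 in Srebf1 and 225 in Fasn. Read on its own strand it is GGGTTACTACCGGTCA in both Abca1 and Fasn.

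Genes of fatty acid synthesis and desaturation were higher as well. Of 20 tested, 18 were higher and 2 lower, 13 lay above both vehicle arrays and 0 below (21.9% and 26.7% of all genes), and 9 were higher at an unadjusted p under 0.05 (8.58% of all genes). The median difference was 0.83, at 1.07 for T0901317 replicate 1 and 0.86 for replicate 2, and none passed the adjusted test. Scd2, a desaturase low in adult mouse liver, measured 10.55 and 9.25 with T0901317, against 6.57 and 5.13 with vehicle (difference 4.05, SE 0.58, adjusted p = 0.124). Elovl6, which lengthens palmitate, measured 10.49 and 10.79 with T0901317, against 8.18 and 6.82 with vehicle (difference 3.14, SE 0.511, adjusted p = 0.133). Both genes separated the groups without overlap, and their other probe sets read 2.11 for Scd2 and 2.97 for Elovl6. Acss2, which makes acetyl-CoA from acetate, differed by 2.36 and Mid1ip1, an activator of acetyl-CoA carboxylase, by 1.67. Vehicle replicate 2 was the lower vehicle array for all 4 of these genes, and the list median was 0.48 without it and 1.58 without vehicle replicate 1.

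Genes of lipid storage were more often higher than lower, and those of sterol synthesis were divided. Of 22 triglyceride and lipid droplet genes 16 were higher, as were 4412 of all 9359 genes. At an unadjusted p under 0.05 there were 4 higher and 0 lower, against 8.58% and 4.7% of all genes. Both T0901317 arrays lay above both vehicle arrays for 8 and below for 2, against 21.9% and 26.7% of all genes. The median was 0.51, or 0.18 for T0901317 replicate 1 and 0.33 for replicate 2, and 0.07 without vehicle replicate 2. Plin2, the coat protein of hepatocyte droplets, was at 13.31 and 12.92 with T0901317 and 12.50 and 11.43 with vehicle. The lipases Pnpla2 and Mgll differed by 1.03 and 0.84, and Plin5, a droplet protein of oxidative tissues, by 1.37. The 2 other probe sets of Mgll read -0.77 and 0.255, so its direction depends on the probe set. Of 23 genes of sterol synthesis and its regulator SREBP2, 13 were higher and 10 lower (median 0.12, or 0.32 without vehicle replicate 1 and -0.0047 without vehicle replicate 2). Sqle, squalene epoxidase, was at 6.96 and 5.61 with T0901317, against 5.01 and 5.05 with vehicle, whereas Mvk, mevalonate kinase, was at 5.25 and 5.20 with T0901317 and 5.70 and 5.93 with vehicle. Idi1 and Dhcr7, enzymes of the middle and the last steps, differed by 1.20 and 0.85. Among 22 apolipoproteins and lipid transfer genes, 10 were higher and 12 lower. Scarb1, the receptor that takes up high density lipoprotein cholesterol, was at 9.17 and 8.18 with T0901317 and 9.51 and 10.08 with vehicle, and Apof differed by -0.67.

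Bile acid genes were mostly lower, apart from Cyp7a1. Of 24 tested, 17 were lower and 7 higher, 11 lay below both vehicle arrays (26.7% of all genes), and 7 were lower at an unadjusted p under 0.05 (4.7% of all genes; median -0.27, or -0.09 without vehicle replicate 1 and -0.42 without vehicle replicate 2). Cyp7b1, the oxysterol hydroxylase of the alternative pathway, measured 7.25 and 8.55 with T0901317, against 10.31 and 11.93 with vehicle (difference -3.22, SE 0.679, adjusted p = 0.176). Its second probe set gave the same difference, -3.22. Cyp8b1, which directs synthesis toward cholic acid, was at 6.24 and 7.13 with T0901317, against 9.11 and 8.59 with vehicle (difference -2.17, SE 0.375, adjusted p = 0.146). Slco1b2, an uptake transporter for bile acids and drugs, lay at 11.37 and 11.23 with T0901317, against 12.99 and 12.58 with vehicle (difference -1.48, SE 0.23, adjusted p = 0.133). Nr0b2, which encodes the repressor SHP, measured 7.05 and 6.46 with T0901317 and 8.50 and 8.02 with vehicle. Summed intensity over the list was 38560 and 38390 with T0901317, against 59670 and 53800 with vehicle.

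Fatty acid oxidation genes controlled by PPARα included some of the largest differences, and their replicates were far apart. Of 26 tested, 20 were higher and 7 lay above both vehicle arrays, as 21.9% of all genes did. The median was 0.24, at 0.40 for T0901317 replicate 1 and 0.09 for replicate 2. It was 0.38 without vehicle replicate 1 and 0.06 without vehicle replicate 2. In GFP livers 9 of the 26 were higher with T0901317, with a median of -0.17. Cyp4a14, a fatty acid hydroxylase, measured 11.97 and 9.61 with T0901317, against 7.0 and 4.45 with vehicle (difference 5.06, SE 1.13, adjusted p = 0.182). On the GFP arrays Cyp4a14 was at 11.52 and 9.61 with T0901317 and 9.13 and 10.35 with vehicle. Its lowest levels were thus on the LXRα vehicle arrays. Ehhadh, an enzyme of peroxisomal oxidation, measured 13.18 and 12.01 with T0901317, against 10.42 and 8.82 with vehicle. The thioesterases Acot1 and Acot3 differed by 3.42 and 3.17, and Pdk4, which blocks pyruvate oxidation, lay at 8.22 and 6.03 with T0901317 and at 4.28 and 4.22 with vehicle. For all 5 genes T0901317 replicate 1 was above replicate 2, and both were above the vehicle arrays.

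Xenobiotic metabolism genes under PXR and CAR were higher in 20 of 27 cases, 12 above both vehicle arrays and 10 at an unadjusted p under 0.05, against 21.9% and 8.58% of all genes. Their median of 0.60 was 0.58 for T0901317 replicate 1 and 0.82 for replicate 2, but 0.11 without vehicle replicate 2 and 1.13 without vehicle replicate 1. In GFP livers 13 of the 27 were higher with T0901317, with a median of -0.02. Gstm3, a glutathione transferase, measured 12.38 and 10.93 with T0901317, against 8.04 and 6.45 with vehicle (difference 4.42, SE 0.737, adjusted p = 0.142), and its other probe set read 4.41. On the GFP arrays Gstm3 was at 10.20 and 9.66 with T0901317 and 11.38 and 9.94 with vehicle, so its lowest levels were on the LXRα vehicle arrays. Gstm1 and Gsta4, of the same enzyme class, differed by 1.96 and 2.11; transferases of near-identical sequence may share probes. Cyp2c55, a PXR and CAR target, was at the floor on both vehicle arrays and at 5.31 and 5.45 with T0901317. The PXR gene itself, Nr1i2, was at 5.27 and 4.82 with T0901317 and 4.82 and 4.83 with vehicle, and the CAR gene, Nr1i3, at 7.04 and 6.63 with T0901317 and 7.67 and 7.47 with vehicle. Rxra, the partner of these receptors, lay at 8.84 and 7.71 with T0901317 and 9.27 and 9.61 with vehicle. NRF2 antioxidant genes were higher in 14 of 20 cases (median 0.40). Srxn1, sulfiredoxin, differed by 1.60 on its brightest probe set and by -0.58 to -0.28 on its 3 others, and Gclm, a subunit of the enzyme that starts glutathione synthesis, by -0.79.

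Genes of the growth hormone axis and of sex-biased liver expression were lower in 21 of 31 cases, with 1 call, Hsd3b5. Of these, 13 lay below both vehicle arrays and 10 had an unadjusted p under 0.05, against 26.7% and 4.7% of all genes (median -0.38, at -0.40 for T0901317 replicate 1 and -0.42 for replicate 2). Igfals, which stabilises circulating IGF1, measured 5.95 and 5.14 with T0901317, against 7.27 and 7.93 with vehicle (difference -2.05, SE 0.356, adjusted p = 0.146). C8b, a complement component, measured 8.08 and 7.78 with T0901317, against 9.53 and 10.70 with vehicle (difference -2.19, SE 0.475, adjusted p = 0.182). Both genes were below both vehicle arrays, as was Cyp7b1, which is male-biased in mouse liver. On the GFP vehicle arrays Igfals was at 6.34 and 5.94, C8b at 7.705 and 7.716 and Cyp7b1 at 9.07 and 7.85. Each of these genes had its highest levels on the LXRα vehicle arrays. In GFP livers 18 of the 31 list genes were higher with T0901317, with a median of 0.17.

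Amino acid, glucose and secretory genes were lower in most cases, beside 4942 of all 9359 genes that were lower. Of 28 genes of amino acid metabolism and the urea cycle, 25 were lower, 15 below both vehicle arrays and 9 at an unadjusted p under 0.05, against 26.7% and 4.7% of all genes. The list median was -0.48, at -0.30 for T0901317 replicate 1 and -0.68 for replicate 2. Oat, ornithine aminotransferase, was at 10.87 and 10.73 with T0901317, against 12.44 and 11.91 with vehicle, and Hal, histidine ammonia-lyase, at 8.49 and 8.04 with T0901317, against 9.24 and 10.05 with vehicle. Bhmt, which remethylates homocysteine, differed by -0.90. Of 21 glucose genes 14 were lower (median -0.27, or -0.52 without vehicle replicate 2). Fbp1, the gluconeogenic bisphosphatase, lay at 12.11 and 12.10 with T0901317 and at 13.22 and 12.89 with vehicle (difference -0.95, SE 0.191, adjusted p = 0.172). Acute phase and inflammation genes were lower in 28 of 35 cases, with a median of -0.59 that was -0.83 without vehicle replicate 1 and -0.13 without vehicle replicate 2. Saa4, a constitutive serum amyloid, was at 9.03 and 9.99 with T0901317 and 10.53 and 11.89 with vehicle, and the chemokine Cxcl1 at 6.34 and 5.12 with T0901317 and 7.13 and 8.50 with vehicle. Hamp2, a hepcidin gene of the mouse, ran against the list at 10.82 and 10.26 with T0901317 and 7.51 and 6.80 with vehicle. ER stress and chaperone genes were lower in 21 of 30 cases (median -0.17, or -0.43 without vehicle replicate 1), among them the chaperone cofactors Sdf2l1 (-2.01) and Manf (-1.24).

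The remaining pathways were divided. Of 19 cell cycle genes 13 were higher (median 0.11, or 0.06 for T0901317 replicate 1 and 0.02 without vehicle replicate 2). Ccnd1, cyclin D1, measured 9.39 and 9.44 with T0901317, against 6.69 and 5.41 with vehicle (difference 3.36, SE 0.471, adjusted p = 0.12), and its 2 other probe sets read 2.30 and 3.53. The replication helicase subunits Mcm3, Mcm6 and Mcm7 differed by 0.81, 1.09 and 1.34, and the other probe sets of Mcm3 and Mcm7 lay between -0.30 and 0.04. Interferon response genes had a median of 0.06, with 0.54 for T0901317 replicate 1 and -0.13 for replicate 2, so the arrays gave opposite signs. Cytosolic ribosomal protein genes were higher in 21 of 28 cases (median 0.32, or 0.15 for T0901317 replicate 2 and 0.155 without vehicle replicate 2), respiratory chain genes in 23 of 37 (median 0.10, or 0.01 for T0901317 replicate 1 and -0.02 without vehicle replicate 2), clock genes in 8 of 15 (median 0.25) and nuclear receptors and cofactors in 11 of 20 (median 0.04).

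Markers of stellate cells and matrix, of macrophages and of endothelium were mostly higher, on the same arrays as the lipid genes above. Of 18 stellate cell and matrix markers tested, 17 were higher, 16 above both vehicle arrays, and 10 had an unadjusted p under 0.05, against 21.9% and 8.58% of all genes. The median was 1.21, at 1.26 for T0901317 replicate 1 and 1.13 for replicate 2. Their summed intensity was 5567 and 5667 with T0901317, against 2134 and 1793 with vehicle. On the GFP arrays it was 5583 and 3919 with T0901317 and 5029 and 3265 with vehicle. The LXRα vehicle arrays thus had the lowest sums of all 8 arrays. Col4a2, a basement membrane collagen, measured 7.25 and 7.46 with T0901317, against 5.47 and 5.48 with vehicle (difference 1.88, SE 0.281, adjusted p = 0.131), and the proteoglycans Bgn and Dcn differed by 1.55 and 1.51. Of 21 macrophage and Kupffer cell markers 19 were higher and 12 lay above both vehicle arrays, as 21.9% of all genes did. Their summed intensity was 15550 and 14540 with T0901317, against 12960 and 5295 with vehicle, so vehicle replicate 2 stood apart. The GFP arrays gave sums of 12820 and 21960 with T0901317 and 18390 and 19510 with vehicle. The macrophage median of 0.94 was 0.38 without vehicle replicate 2 and 1.59 without vehicle replicate 1. Clec4f, a lectin restricted to Kupffer cells in mice, was at 8.81 and 8.16 with T0901317 and 8.57 and 8.12 with vehicle. Ly86, a partner of a Toll-like receptor homologue, was at 7.62 and 7.70 with T0901317, against 6.40 and 5.66 with vehicle. Of 16 endothelial markers 12 were higher (median 0.31), and Lyve1, a hyaluronan receptor of sinusoidal and lymphatic endothelium, measured 8.40 and 8.18 with T0901317, against 5.83 and 4.97 with vehicle (difference 2.89, SE 0.414, adjusted p = 0.124). Of 12 hepatocyte markers 10 were lower (median -0.16, or -0.32 without vehicle replicate 1 and -0.29 without vehicle replicate 2), with summed intensities of 104900 and 96140 with T0901317, against 119300 and 113500 with vehicle.

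Blood and bile duct markers gave small lists. Lymphocyte markers were higher in 3 of 9 cases, with a summed intensity of 3675 on T0901317 replicate 1 and 684.6 on replicate 2, against 653 and 295 with vehicle. The T cell marker Cd3g stood near the floor of 2.91, at 3.31 and 3.39 with T0901317 and 3.59 and 3.51 with vehicle. The immunoglobulin gene Ighm made most of this difference, at 11.70 and 8.32 with T0901317 and 8.57 and 6.64 with vehicle. Cholangiocyte markers were higher in 4 of 7 cases, led by the keratin Krt8, which hepatocytes also make, at 11.53 and 11.16 with T0901317 and 9.49 and 10.24 with vehicle. Erythroid markers were lower in 7 of 8 cases and neutrophil markers in 4 of 5, and S100a8 and S100a9 overlapped between the groups. The part of cell composition in the results was not tested.

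**Figure D3:**
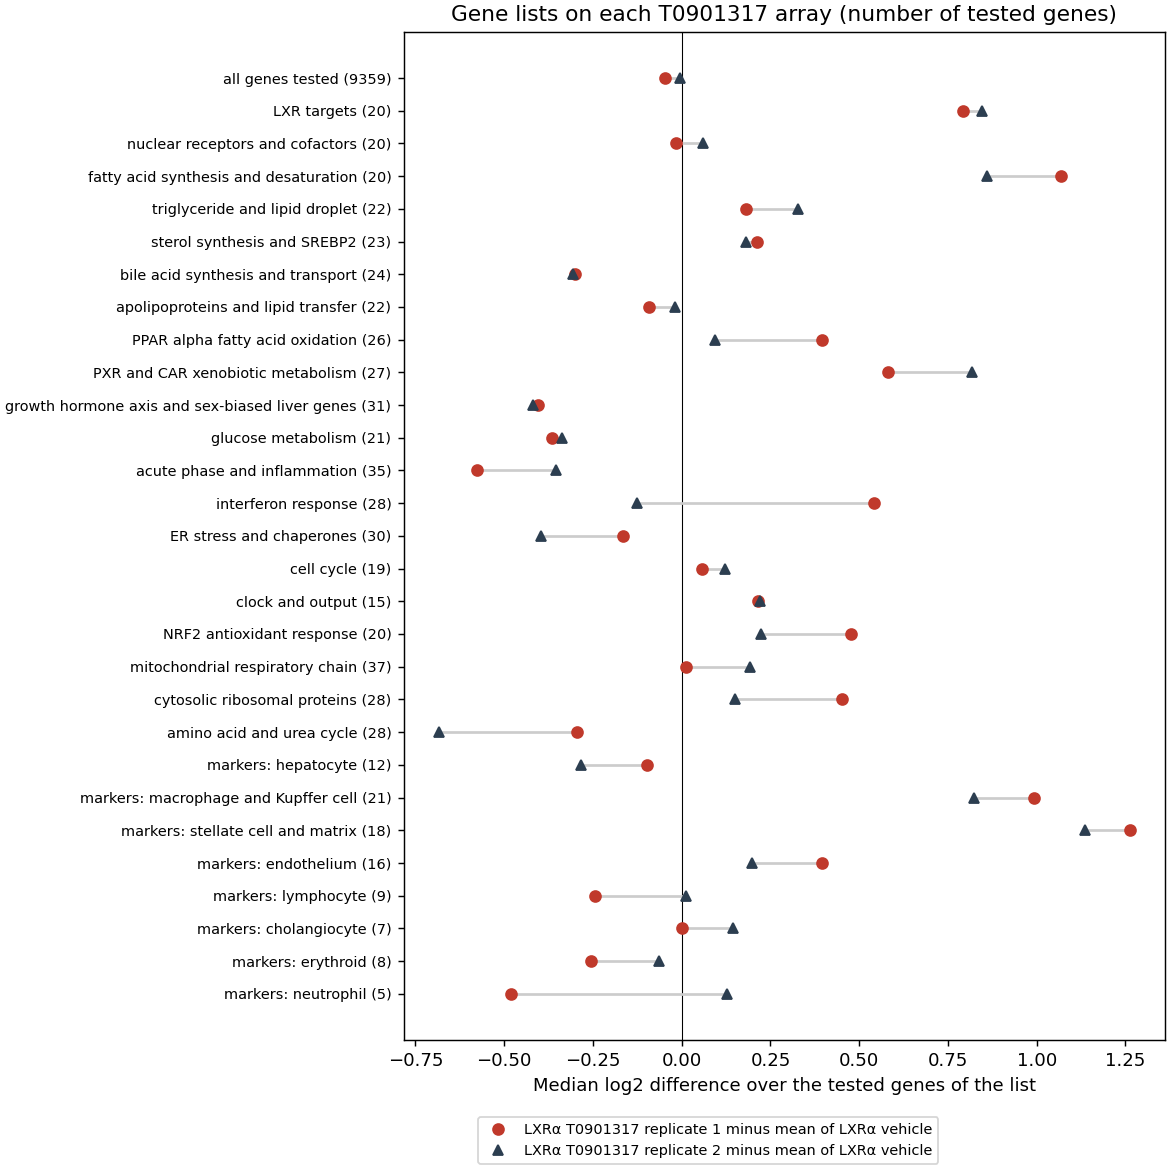
Median log2 difference from the LXRα vehicle mean for each gene list, with 1 point for LXRα T0901317 replicate 1 and 1 for replicate 2. The stellate and matrix (1.26 and 1.13), macrophage (0.99 and 0.82) and LXR target (0.79 and 0.85) lists lie to the right on both arrays, and the amino acid list (-0.30 and -0.68) lies to the left on both.

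Of the genes with the largest differences by the ranking rule (345 genes, 267 higher and 78 lower), several belong to none of these lists. Ly6d, a GPI-anchored surface protein, measured 9.14 and 8.34 with T0901317, against 4.19 and 4.50 with vehicle (difference 4.40, SE 0.53, adjusted p = 0.092). The chemokine Ccl9 was at 9.80 and 9.27 with T0901317 and 7.30 and 4.53 with vehicle, and its other probe set read 0.92. Slc22a7, an organic anion transporter, measured 4.05 and 4.50 with T0901317, against 8.13 and 9.62 with vehicle (difference -4.60, SE 0.606, adjusted p = 0.092). Ly6d and Slc22a7 had gaps between the groups that were wider than the differences within them. Qsox1, which forms disulphide bonds in secreted proteins, differed by -2.76, and Inhbc, an activin subunit made in liver, by -2.16. Hnrnpab, an RNA-binding protein, differed by -2.04 on its brightest probe set and by -0.92 to 0.24 on its 6 others.

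The T0901317 arrays were set apart against the vehicle mean, which they share. Replicate 1 had 553 genes more than 2-fold higher and 129 more than 2-fold lower, and replicate 2 had 623 higher and 388 lower. Some genes differed mainly between the T0901317 arrays, and these were chosen after their values were seen. Cyp17a1, a steroid hydroxylase, was at 9.05 and 4.72 with T0901317 and 6.51 and 3.41 with vehicle. Got1, the cytosolic aspartate aminotransferase, was at 10.69 and 6.84 with T0901317 and 10.37 and 10.04 with vehicle, so only replicate 2 was far from the vehicle arrays. Gfra1 and Ap3m1 were 4.93 and 4.19 higher on replicate 1 than on replicate 2. In the other direction, the anion transporter Slco1a1 was at 3.93 and 6.92 with T0901317 and 9.18 and 8.33 with vehicle. Its other probe set read 5.00 and 4.16 with T0901317 and 9.17 and 8.44 with vehicle, so the order of the T0901317 arrays depends on the probe set. The acute phase gene Saa1 was at 10.96 and 13.53 with T0901317 and 11.80 and 14.15 with vehicle.

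Leaving out 1 array changed the calls. Without T0901317 replicate 1 there were 474 calls, 181 higher and 293 lower, which then rested on replicate 2, the array with the β-actin ratio of 36.3. Without T0901317 replicate 2 there were 6 calls, and without vehicle replicate 2 there were 0, with 1152 probe sets at an unadjusted p under 0.05. Without all 3 T0901317 arrays of high β-actin ratio, the GFP ones included, there were 9 calls, 8 higher and 1 lower. Rnf145 was called without T0901317 replicate 1 (adjusted p = 0.028), as were Cyp7a1 (0.0487), Igfals (0.0362) and Dcn (0.0314), each of which missed the threshold with all arrays. In those fits the T0901317 group is 1 array, whose spread is assumed to equal that of the other groups.

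The response in LXRα livers was set against that in GFP livers, with which it shares no array. The difference between the responses was called for 1 of 15838 probe sets, or 0.00631%. At an unadjusted p under 0.05 there were 755, fewer than the 792 that chance alone would give on average if all were independent and unchanged. The called gene was Hsd3b5, with an interaction of -6.52 (SE 0.452, adjusted p = 0.0314). The call was lost with quantile normalization (adjusted p = 0.0501), the lower floor (0.137), no filter (0.14) and the replicate block (0.0824). It was also lost when any 1 of the LXRα vehicle or GFP T0901317 arrays or GFP vehicle replicate 2 was left out (adjusted p between 0.0716 and 0.415), and the interaction kept its sign in all these fits. Mast2 differed by 1.71 in LXRα livers and -0.19 in GFP livers (interaction adjusted p = 0.311), and Zmynd8 by 2.65 and 2.43. Ly6d differed by 4.40 in LXRα livers and -1.44 in GFP livers, where it stood at 7.45 and 8.60 with T0901317 and at 10.04 and 8.89 with vehicle (interaction adjusted p = 0.45). Slc22a7 differed by -4.60 and 0.78 (adjusted p = 0.755). Sprr1a, a cornified envelope protein, differed by 1.19 and -2.83, and Cyp2c70, which makes muricholic acids in mice, by -0.41 and 1.84 (adjusted p = 0.694 for each).

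For the LXR targets the median difference was 0.85 in LXRα livers and 0.25 in GFP livers, and the smallest interaction p of any member, adjusted, was 0.906. Members ran in both orders. Cyp7a1 differed by 1.22 in LXRα livers and 3.10 in GFP livers, and its vehicle levels were 7.78 and 7.86 in LXRα livers, against 6.28 and 6.09 in GFP livers. Abcg5 differed by 0.83 and 1.74, and Srebf1 by 0.64 and 1.80. Rnf145 differed by 2.32 and 1.70, Pltp by 1.97 and 0.23, and Lpl by 2.13 and 0.27. Medians of other lists were -0.59 in LXRα livers and 0.47 in GFP livers for acute phase genes, 1.21 and 0.09 for stellate and matrix markers, and 0.94 and -0.11 for macrophage markers. No list difference between the transgenes was tested, and the GFP T0901317 arrays also had high β-actin ratios, at 7.56 and 11.

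**Figure D4:**
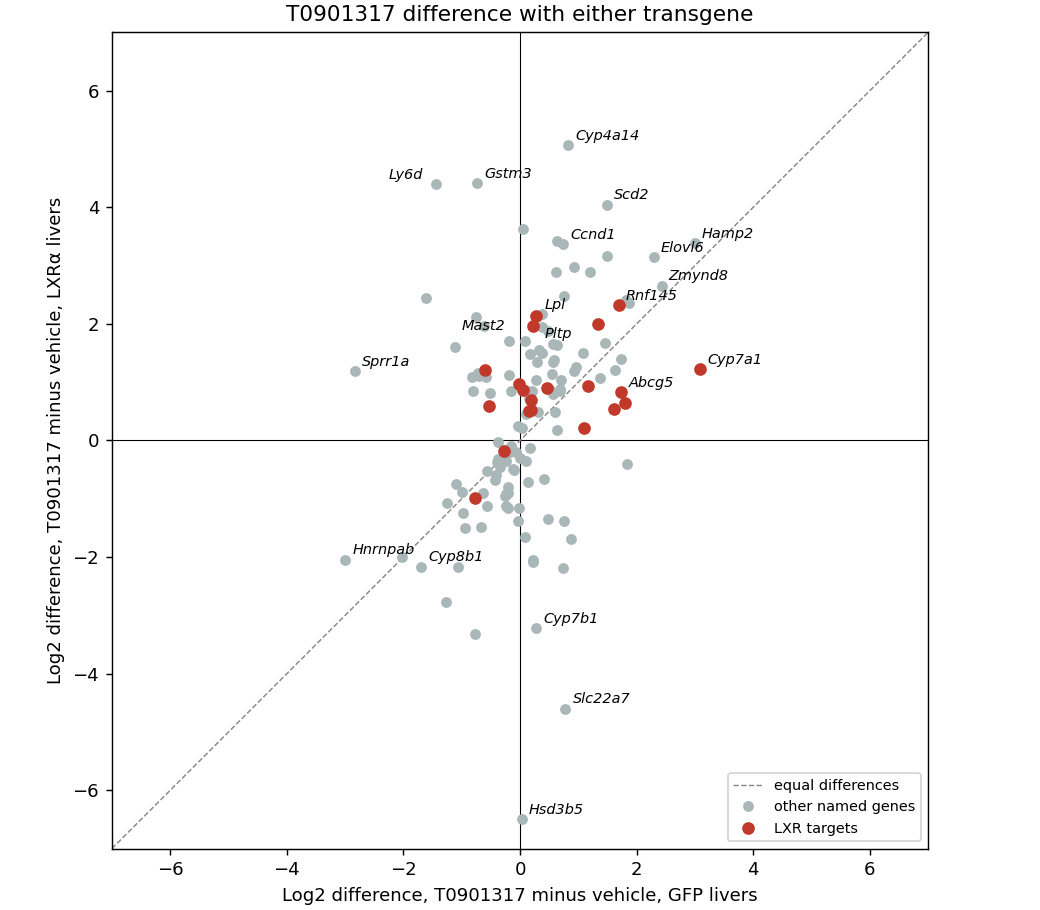
Each point is 1 named gene, LXR targets in red, with the log2 difference of T0901317 against vehicle in LXRα livers on the vertical axis and in GFP livers on the horizontal axis. Hsd3b5 lies alone at -6.49 and 0.03, while Zmynd8 (2.65 and 2.43) and Rnf145 (2.32 and 1.70) lie near the dashed line of equal differences.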

How the data were processed

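Liver RNA had been hybridised to Affymetrix mouse arrays, 1 array per sample, and the 8 arrays were grouped by their titles. All mice carried the same germline mutation, which is not reported here. The authors deposited 1 intensity per probe set and array, on a linear scale as read from its range, and the sources used here do not say how probes were summarised or arrays scaled. The 64 control probe sets of 22690 were set aside. The platform annotation gave 1 gene symbol for 20380 of the remaining 22626, several for 691 and none for 1555, and RefSeq updated 20351 symbols.

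Values under 7.50, the 20th percentile, were set to it before taking log2. Array medians lay within 0.141 of each other, so the deposited scaling was kept. A filter at the 30th percentile of mean log2 intensity left 15838 probe sets of 9359 genes, which were fitted with limma 3.58.1 in R 4.3.3 as 4 group means on all 8 arrays, with an intensity trend (4 residual and 2.93 prior degrees of freedom). Benjamini-Hochberg adjustment ran over every tested probe set. Standard errors are moderated, and precision is limited by the number of arrays. In 10 simulated data sets of this comparison with 200 changed probe sets each, 86.8% of changes of 2 log2 units and 99% of changes of 4 were called. The simulated noise had the same spread in every group, whereas the real LXRα T0901317 replicates differed more than the vehicle ones (0.325 against 0.189). Several real differences above 4, such as that of Cyp4a14 (5.06), were not called. The simulated shares therefore do not show how many real changes of these sizes were missed.

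The arrays compared, the 28 gene lists (703 genes) and the tests were chosen with earlier results of these data known. Named genes are the called ones with 1 symbol, the 10 largest differences each way (unadjusted p under 0.01, no overlap, higher mean at least 5), all tested LXR targets, up to 4 members of each other list by p, the 6 smallest interaction p-values, and Nr1h3, Nr1i2 and Alb. Eif2s3y, Clec4f and the genes that differed between the T0901317 arrays were added after their values were seen. Alternatives were quantile normalization, median centring, a lower floor (5th percentile), adding 16 in place of a floor, no filter or one at the 50th percentile, no trend, robust spread, a replicate block, the 4 LXRα arrays alone, each array left out, the β-actin ratio as a covariate, the 3 high-ratio arrays left out, and an adjusted p under 0.10. The main fit did not pair arrays by replicate number. Deviations of same-numbered LXRα T0901317 and LXRα vehicle arrays correlated at -0.036. Those of the other pairs of groups correlated at -0.138 to 0.247, highest between the GFP T0901317 and LXRα T0901317 arrays.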

Additional observations from a re-analysis of the deposited data

Results flagged for a closer look

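The response of Hsd3b5 to T0901317 differed between the transgenes, with an interaction of -6.52 log2 units (SE 0.452, limma adjusted p = 0.0314). The call was lost under 9 alternatives, 4 of them processing settings and 5 of them fits without 1 array, with an adjusted p of up to 0.415. It lay at 2.91 and 3.90 in LXRα T0901317 livers, against 9.72 and 10.08 in LXRα vehicle livers, and at 3.07 and 2.91 in GFP T0901317 livers, against 3.02 and 2.91 in GFP vehicle livers. The value rests on the 2 LXRα vehicle arrays, the only ones of the 8 with a high level, and its intensity was below the floor on LXRα T0901317 replicate 1, GFP T0901317 replicate 2 and GFP vehicle replicate 2.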

How the results depend on the processing

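The 4 calls became 7 with quantile normalization, 2 with an offset of 16, 14 without a filter, 2 without the intensity trend, 0 with the 4 LXRα arrays alone (1354 probe sets at an unadjusted p under 0.05), 9 without the 3 high-ratio arrays and 23 at an adjusted p under 0.10, and leaving out 1 array gave 0 to 474. The other alternatives gave 3 to 6, the replicate block 3. The interaction call of 1 became 0 with quantile normalization, a floor at the 5th percentile or the replicate block, 8 without a filter (Hsd3b5 not among them), 2 without the trend and 2 with the β-actin covariate, and leaving out 1 array gave 0 to 24, the highest without GFP vehicle replicate 1. Of the gene results under settings other than leaving out 1 array, 1624 of 1647 kept direction and side of the threshold, and 6 reversed: Csf3r to 0.038 with quantile normalization, Alb to 0.065 with median centring, 0.042 with the covariate and 0.020 without the high-ratio arrays, and S100a8 to -0.66 with the covariate and -0.48 without those arrays. Leaving out 1 array reversed 6 genes whose groups overlap: S100a8 (-0.48 to 0.84), Alb (-0.074 to 0.020), S100a9 (-0.69 to 0.42), Eif2s3y (-0.17 to 0.66), Mlxipl (-0.033 to 0.46) and Nr1i2 (-0.0056 to 0.45). Mast2 and Zmynd8 each lost their call under 7 settings other than leaving out 1 array, the offset, no filter, no trend, the replicate block, the 4 arrays alone and the high-ratio arrays left out among them, and Gstm3 was called with the replicate block (adjusted p = 0.0448) and Cyp2c55 without the high-ratio arrays (0.0243) or either GFP T0901317 array (0.00713 and 0.011). Medians of 9 of 28 lists changed sign in some setting, and the LXR target median stayed between 0.51 and 1.16. The motif share of 3.02% was 0.25% with 1 letter changed and 21.9% with 3. The causes were not tested. With 2 arrays per group, 1 array can decide a call, and dim genes such as Mast2 are limited by signal over background.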
